A study of Mus musculus with 2 samples.

Results

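Mir191 and Mir425 are a pair of microRNA genes that lie next to each other on mouse chromosome 9 and are known to be transcribed together. They were chosen by their gene names in the GENCODE M21 annotation, not by a rule on their values. Earlier results of these data were known at that time. They are 2 of the 2202 microRNA genes counted in the study. Small RNA below 30 bases was sequenced from the gastrocnemius, the main muscle of the calf, of adult male mice labelled 5xFAD/CAST and aged 8 to 10 months. 5xFAD carries human amyloid precursor protein and presenilin transgenes driven by a neuronal promoter, and CAST is an inbred strain derived from wild mice; whether the animals sampled carried the transgenes is not stated. There was 1 group of 2 libraries, labelled biological replicates 1 and 2, made from different tissue samples under the same donor entry, and nothing in the labels tells whether these were different mice. The p-values below therefore set differences between 2 libraries against counting error, with a fixed spread added only in an edgeR exact test. Such differences may be technical, and no conditions could be compared.

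A microRNA is cut from a hairpin in a longer transcript, and 1 or both arms of the hairpin become mature strands that guide Argonaute proteins to messenger RNAs. The seed, bases 2 to 8 of the mature strand, does most of the pairing with the target. miR-191 is found in most tissues and is often used to normalise microRNA assays, and miR-425 is known for acting on the mRNA of natriuretic peptide A. Because one transcript can carry several hairpins, genes of a pair are made together but can be processed and degraded apart.

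The RefSeq hairpins (build GRCm38.p6), which span the same bases as the GENCODE genes, are shown with the mature arms in capitals, because reads were counted per hairpin and the 5p and 3p arms cannot be told apart in these files.
Mir191 hairpin: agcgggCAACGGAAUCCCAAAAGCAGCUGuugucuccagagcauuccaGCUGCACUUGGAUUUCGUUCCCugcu
Mir425 hairpin: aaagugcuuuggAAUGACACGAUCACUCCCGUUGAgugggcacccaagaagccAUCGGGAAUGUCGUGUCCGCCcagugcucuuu
The mature strands follow with the seed in capitals, since the seed groups microRNAs into families.
mmu-miR-191-5p: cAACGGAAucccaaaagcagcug
mmu-miR-191-3p: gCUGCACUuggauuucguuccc
mmu-miR-425-5p: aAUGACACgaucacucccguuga
mmu-miR-425-3p: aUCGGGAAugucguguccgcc
The 4 seeds differ from each other, and the longest run of bases common to the 2 hairpins is 5. Among the 1738 mature strands in the RefSeq table, none from another gene has the seed of miR-191-5p, miR-191-3p or miR-425-3p. The seed of miR-425-5p, AUGACAC, recurs in 1 other, mmu-miR-489-3p. Mir489, a gene known in muscle satellite cells, had 0 sense reads in both libraries; 3 counts, the limit a count of 0 allows, come to 2.59 and 2.51 CPM in replicates 1 and 2. Mir425 was thus the only gene of that seed with counted reads.

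Mir191 (ENSMUSG00000105497.1) lies at chr9:108568319-108568392 and Mir425 (ENSMUSG00000065579.1) at chr9:108568777-108568861 of mm10, both on the plus strand, with 384 bases between them. They are usually described as lying in Dalrd3, whose protein is known for its part in the methylation of arginine tRNAs. The annotations disagree on this. In RefSeq, Dalrd3 spans chr9:108567484-108572773 and holds both hairpins. In GENCODE M21, the annotation behind the counts, Dalrd3 (ENSMUSG00000019039.14) starts at 108569886, which is 1024 bases past the end of Mir425, and none of its 9 transcripts contains either hairpin. There the host is the lincRNA 4833445I07Rik (ENSMUSG00000103103.1), at chr9:108567533-108569174 on the same strand. Both hairpins lie in exon 1, the single exon, of its transcript 4833445I07Rik-201, while Mir191 lies in intron 1 of 4833445I07Rik-202, which ends before Mir425. Ndufaf3, which encodes an assembly factor of respiratory complex I, is read in the opposite direction upstream. No long RNA was measured in these files, so which of the models is transcribed in the muscle was not tested.

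**Figure D1:**
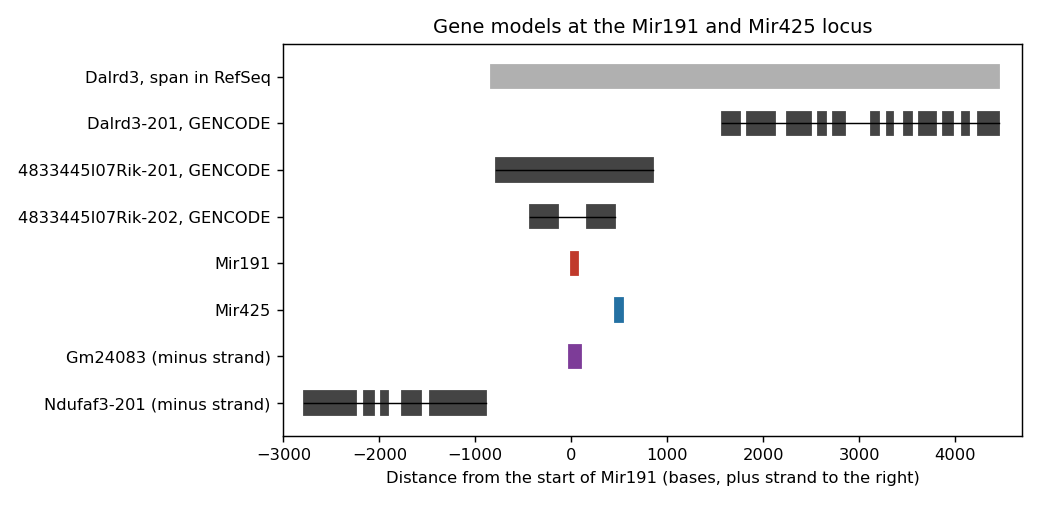
Gene models around the hairpins, with the distance from the start of Mir191 in bases on the x axis and 1 row per model; dark boxes are GENCODE exons, the grey bar is the RefSeq span of Dalrd3, and coloured boxes are microRNA genes. Mir191 and Mir425 lie inside the RefSeq span and inside the lincRNA 4833445I07Rik-201, and 1024 bases separate Mir425 from the GENCODE start of Dalrd3.

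Another microRNA gene, Gm24083 (ENSMUSG00000092915.1), lies on the minus strand at chr9:108568295-108568414 and covers Mir191 whole. This overlap decides which column can be read. In the column of both strands Mir191 had 0 reads in each library, whereas in the sense column it had 7642 and 6169. The opposite-strand column of Gm24083 held the same 7642 and 6169 reads, and its own sense column held 0 and 0. No read counted on the minus strand was therefore found at Mir191, which allows a share of up to 0.0393% of the Mir191 reads in replicate 1 and 0.0486% in replicate 2 (3 counts of the total). Gm24083 extends beyond Mir191 on each side, and its plus-strand count contained no read beyond those of Mir191. Mir425 overlaps no other microRNA gene: its sense and both-strand counts were equal, at 600 and 335, and its opposite-strand count was 0 in both libraries, which allows up to 0.50% and 0.896%.

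The mature strands of both genes were looked for in all 141767 GENCODE transcripts. On the same strand each was found only in its own gene and in 4833445I07Rik, and in the reverse direction the 2 strands of miR-191 were found only in Gm24083. The wider genome was not searched. Reads that map to more than 1 place, 60.2% of all reads in replicate 1 and 63.2% in replicate 2, are left out of every gene count, and how many came from this locus is not known.

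Mir191 had far more counted reads than Mir425, and both had mean levels above that of the median detected gene. Mir191 held 7642 of 1157420 sense reads in replicate 1, which is 6603 CPM (CPM, reads per 1000000 sense reads in microRNA genes; exact 95% interval 6456 to 6752). In replicate 2 it held 6169 of 1193393, or 5169 CPM (5041 to 5300). Mir425 held 600 reads in replicate 1, or 518 CPM (478 to 562), and 335 reads in replicate 2, or 281 CPM (251 to 312). Both genes were lower in replicate 2, and for each the intervals of the libraries did not overlap. The intervals are Clopper-Pearson and, like the limits on counts of 0, cover counting error only.

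On average Mir191 stood at 5886 ± 1014 CPM (SD, n = 2) and Mir425 at 400 ± 168 CPM (SD, n = 2). Together they took 0.712% of the sense reads in replicate 1 and 0.545% in replicate 2. Mir191 ranked 25 of all genes by mean CPM and lay above 92.2% of the 321 detected genes, those with 2 CPM or more in both libraries. Mir425 ranked 81 and lay above 74.8% of them; the median detected gene had 48.5 CPM. Within replicates 1 and 2 Mir191 ranked 24 and 26, and Mir425 76 and 86.

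The genes next in level give the scale. Directly above Mir191 were Mir151 at 6861 ± 694 CPM and Mir30d at 6657 ± 1100 CPM (SD, n = 2), and directly below were Mir196b at 5817 ± 1011 CPM and Mirlet7f-2 at 5324 ± 906 CPM. All 4 lay within 1 SD of Mir191 in mean level. Within each library the order was nevertheless the same relative to Mir191: Mir151 and Mir30d lay above it, at 7352 and 7435 CPM in replicate 1 and 6370 and 5879 CPM in replicate 2, and Mir196b and Mirlet7f-2 below it, at 6533 and 5965 CPM and at 5102 and 4683 CPM. Around Mir425 stood Mir499, the microRNA of the slow myosin gene Myh7b, at 423 ± 59.4 CPM, Mir379 at 406 ± 25.6 CPM, Mir20a at 357 ± 31.4 CPM and Mir128-1 at 357 ± 88.5 CPM. None of these differed from Mir425 by more than its SD. Mirlet7f-2 and Mir128-1 share a run of 20 bases with another microRNA locus, so their counts are uncertain. The microRNA genes nearest on the chromosome, Gm47303 on one side at 465072 bases and Gm26298 on the other at 84746 bases, had 0 sense reads in both libraries.

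Within each library Mir191 far exceeded Mir425 in counted reads. There were 12.7 Mir191 reads per Mir425 read in replicate 1 (exact 95% interval 11.7 to 13.9) and 18.4 in replicate 2 (16.5 to 20.6), with a geometric mean of 15.3. On the log2 scale the ratio was 3.94 ± 0.38 (SD, n = 2). Per base of hairpin, with 74 bases in Mir191 and 85 in Mir425, the ratios were 14.6 and 21.2. The RNA sequenced was below 30 bases, shorter than either hairpin, so hairpin length need not set the number of reads. The ratio of reads needs no library size. Put the other way, Mir425 gave 7.28% of the reads of the pair in replicate 1 (6.73 to 7.86) and 5.15% in replicate 2 (4.63 to 5.72).

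**Figure D2:**
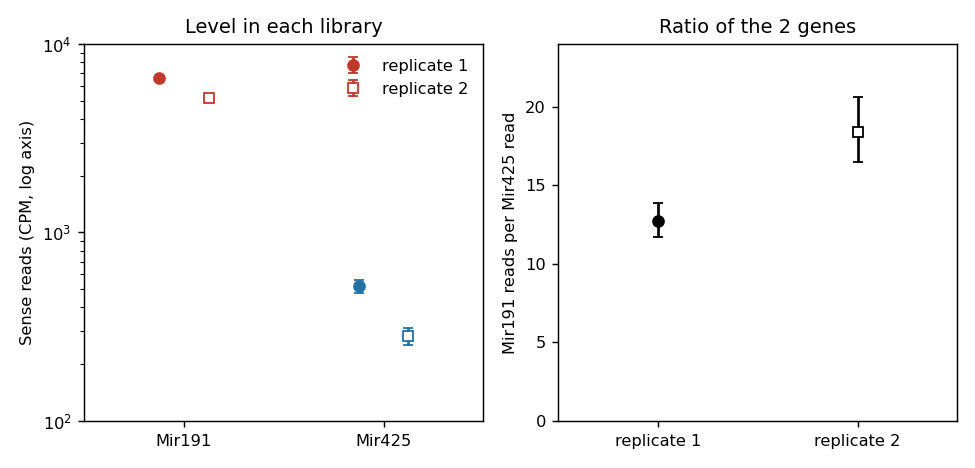
Left, sense reads in CPM (log axis) of Mir191 and Mir425 in each library; right, Mir191 reads per Mir425 read in each library, with exact 95% intervals for counting error throughout. Filled circles are replicate 1 and open squares replicate 2. The ratio stands at 12.7 in replicate 1 and 18.4 in replicate 2.

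The pair did not keep its ratio between the libraries within counting error. The Mir191 to Mir425 ratio was 1.45-fold higher in replicate 2 (95% interval 1.26 to 1.66; two-sided Fisher's exact test, p = 1.25e-07). Had the share of replicate 1 held, Mir425 would have had 473 reads in replicate 2, and 335 were counted.

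Between the libraries, Mir425 was lower in replicate 2, and Mir191 did not pass the test after scaling. After TMM scaling, which sets library sizes by the bulk of the genes, Mir191 was 1.03-fold higher in replicate 1 (95% interval 0.999 to 1.07), a log2 ratio of replicate 2 over replicate 1 of -0.05. It did not pass the exact conditional binomial test (p adjusted over 321 genes by Benjamini-Hochberg, 0.137). Mir425 was 1.49-fold higher in replicate 1 (1.30 to 1.71), a log2 ratio of -0.58, and passed the exact binomial test (adjusted p = 1.35e-08). Thus 1 of the 2 genes passed as lower, beside 18.7% of all detected genes in that direction and 37.4% in either direction.

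The scaling and the assumed spread both bear on these calls. With total counts only, Mir191 was also lower in replicate 2, at -0.35 (exact binomial adjusted p = 1.13e-45), while the median of all detected genes moved to -0.30. Mir425 then stood at -0.88, and 35.5% of detected genes passed as lower and 10.9% as higher, 46.4% in all. Relative to that median, Mir191 lay close to the bulk of the genes under both scalings and Mir425 below it. When the dispersion was set to 0.01 in an edgeR exact test, Mir425 did not pass (adjusted p = 0.0606), and 16.5% of genes did. That dispersion was chosen beforehand and assumes less spread than edgeR estimated from these libraries. The coefficient of variation between the libraries was 17.2% for Mir191 and 42.1% for Mir425 in CPM without TMM scaling. The common value over detected genes by edgeR was 34.0%. It was taken after TMM scaling and leaves out counting error, so the member values cannot be set against it. After TMM scaling Mir191 stood at 5937 and 5749 CPM and Mir425 at 466 and 312 CPM in replicates 1 and 2.

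**Figure D3:**
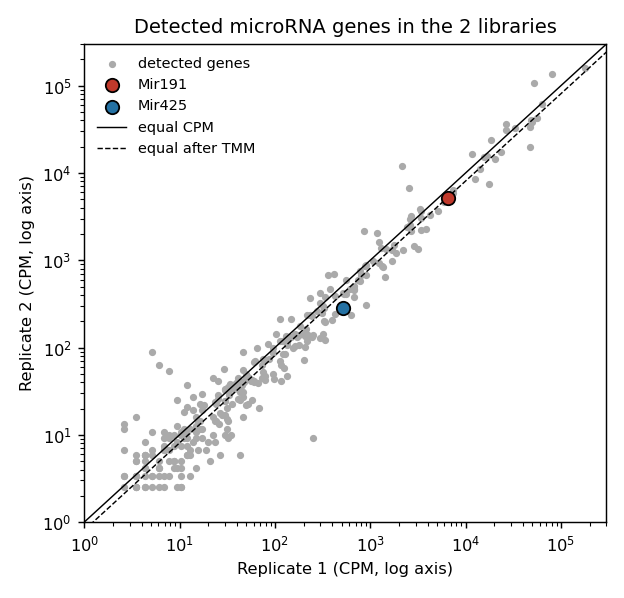
CPM of the 321 detected genes in replicate 1 (x) and replicate 2 (y), on log axes; each point is a gene. Genes on the solid line have equal CPM, and those on the dashed line are equal once scaled by TMM. Mir191 lies close to the dashed line and Mir425, at 518 and 281 CPM, lies below it.

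By size of change, 95.3% of detected genes had a log2 ratio further from 0 than that of Mir191, and 34.9% had one further from 0 than that of Mir425. Among genes of 100 CPM or more, the log2 ratios nearest to that of Mir191 were those of Mir10b, Mir127 and Mir196b, which differed from it by 0.0011, 0.0026 and 0.0035. Mir10b and Mir196b are genes of the Hox clusters and Mir127 is an imprinted gene. Nearest to Mir425 were Mir1981, Mirlet7f-1 and Mir204, at distances of 0.0085, 0.015 and 0.021. Mirlet7f-1 shares a run of 20 bases with another microRNA locus, so its count is uncertain. Likeness was measured over only 2 libraries of 1 group, so it describes these libraries.

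Other microRNA genes that sit close together on 1 strand show how far such pairs differ. With starts at most 1000 bases apart and 50 or more reads of each gene in total, there were 31 pairs, Mir191 and Mir425 included. Some share a gene or come from the same cluster, and in 16 a gene shares a run of 20 bases with another microRNA locus, which does not hold for Mir191 or Mir425. In the other 30 the more abundant gene had a median of 6.22 times the reads of its neighbour, from 1.11 to 185 times. The 15.3-fold gap of Mir191 over Mir425 was exceeded in 7 of these. Among the 14 other pairs without such a shared run, 1 had a larger gap, Mir503 and Mir322 at 83.2-fold. The upstream gene was the more abundant in 21 of the 31 pairs, as Mir191 is.

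The shift in ratio between the libraries was of ordinary size for a neighbouring pair. In the other 30 pairs the ratio moved by a median of 1.60-fold, from 1.02-fold to 20.7-fold, and 18 of them moved more than Mir191 and Mir425. Of the 31 pairs, 71.0% passed Fisher's exact test after Benjamini-Hochberg adjustment over the pairs, with Mir191 and Mir425 among them (adjusted p = 3.24e-07). For Mirlet7e and Mir125a, of the let-7 and miR-125 families, the counts were 4850 and 3946 against 3952 and 3674, a shift of 1.14-fold. Mir497 had 477 and 833 reads and Mir195a 2493 and 14162, a shift of 3.25-fold, and for Mirlet7f-2 and Mir98 the shift was 1.24-fold. These are the 3 pairs nearest to Mir191 and Mir425 in summed reads.

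**Figure D4:**
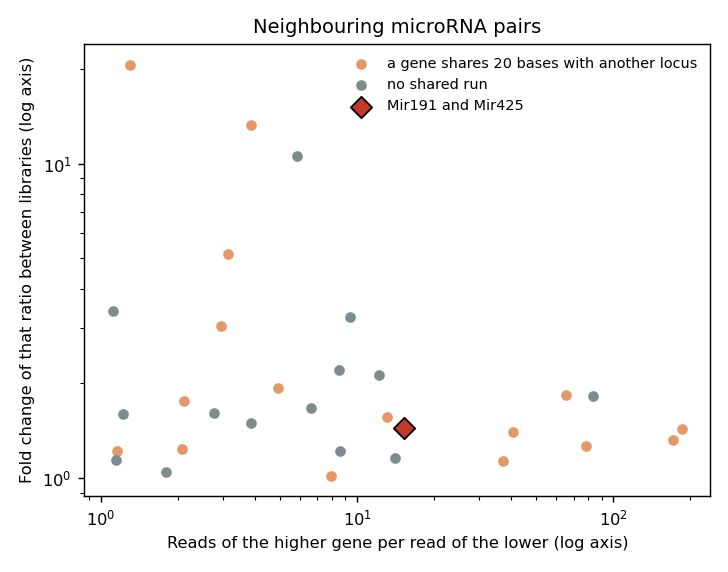
For 31 pairs of neighbouring microRNA genes, the reads of the higher gene per read of the lower (x, log axis, mean over the libraries) and the fold change of that ratio between the libraries (y, log axis), with 1 point per pair. Mir191 and Mir425, the red diamond, lie at 15.3-fold and 1.44-fold, the latter computed with 0.5 reads added to each count.

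MicroRNAs often used as references, as miR-191 is, differed between these libraries about as much as other detected genes in size of log2 ratio. Of 13 such genes 12 were detected, and with TMM the exact binomial test called 6 of them higher and 2 lower in replicate 2, beside 18.7% of all detected genes in each direction. Their median log2 ratio was 0.29, beside -0.013 over all detected genes, and the median size of their log2 ratios was 0.37, beside 0.40. Higher were Mir24-2 (131 and 252 reads), Mir186 (75 and 119), Mir25 (170 and 254), Mir26b (21447 and 28613), Mir423 (3968 and 4324) and Mir361 (1675 and 1618). Mir361 was lower in CPM without TMM scaling, at 1447 and 1356, and with total counts only it did not pass (log2 ratio -0.09). Lower were Mir93 (2154 and 1456 reads) and Mir17 (775 and 564).

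The remaining reference genes did not pass: Mir16-1 had 595 and 497 reads, Mir16-2 171 and 158, Mir24-1 110 and 118, and Mir103-2 12 and 3. Mir103-1, with 1 and 0 reads, was not detected. The Mir16, Mir24 and Mir103 loci share a run of 20 bases with another locus, so their counts are uncertain. With total counts only, 5 passed as higher and 4 as lower, beside 10.9% and 35.5% of all detected genes, and the median was -0.02 beside -0.30 over all detected genes. In size of log2 ratio with TMM, Mir191 at -0.05 was smaller than every detected member of the list except Mir16-1 at 0.0028. With total counts only, Mir191 stood at -0.35 and 5 of the 12 were smaller in size.

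**Figure D5:**
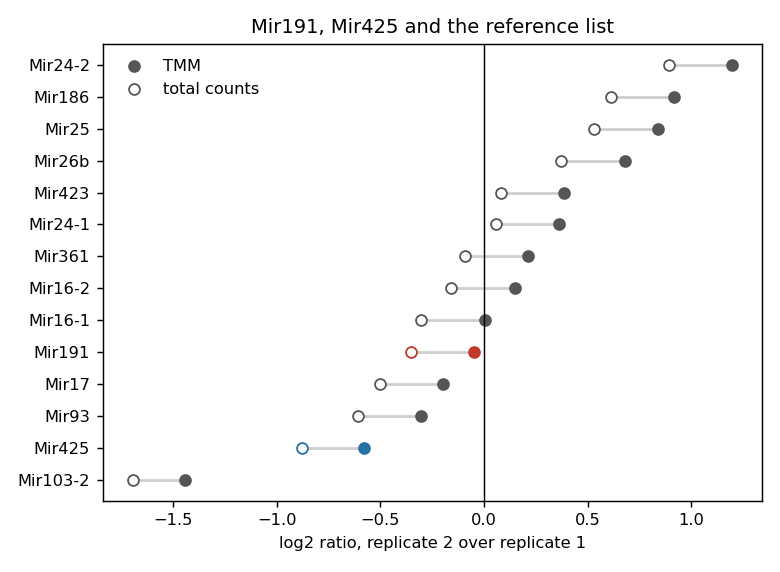
The log2 ratio of replicate 2 over replicate 1 for the 12 detected reference microRNAs and for Mir191 and Mir425, 1 row per gene; filled points use TMM and open points total counts. With TMM, Mir191 stands at -0.05 and Mir425 at -0.58, and the reference genes run from -1.44 for Mir103-2 to 1.20 for Mir24-2.

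The libraries held 6119818 and 6632802 reads, of which 18.9% and 18.0% were sense reads in microRNA genes. Muscle markers were present in both: Mir206, Mir499, Mir208b and Mir486 summed to 3.86% and 3.72% of the sense reads. The endothelial Mir126a held 8.08% and 13.8%, and the smooth muscle genes Mir143 and Mir145a 5.08% and 4.21%. The share was 0.318% and 0.225% for 4 of 4 leukocyte genes, and 0.0163% and 0.0153% for 2 of 2 erythroid genes. The striated muscle list leaves out the Mir1a and Mir133a loci, which share a run of bases with another locus. Reads that map to several places are not counted. Mir1a-2 had 60 and 54 reads, Mir1a-1 14 and 9, and Mir133a-1 24 and 6. The striated muscle sum can therefore miss reads, and these shares do not rank the cell types. Of the 6 nerve genes, 5 had no read in either library and Mir9-1 had 0 and 1. All 6 share a run of 20 bases with another locus, so reads of theirs can be missed. Their counts do not tell whether nerve RNA was present. The liver gene Mir122 had 12 and 13 reads. In replicate 2, where Mir425 was lower, the endothelial share was the larger. The summed striated muscle, smooth muscle, leukocyte and erythroid shares were the smaller. These shares are without TMM scaling, and the median log2 ratio of all detected genes was then -0.30. Members did not all follow their sums. In the striated muscle list Mir206 stood at 32948 and 32931 CPM and Mir486 at 5152 and 3706 CPM. Mir499 stood at 381 and 465 CPM and Mir208b at 104 and 142 CPM. With TMM, both and Mir206 passed as higher in replicate 2, and Mir486 passed as lower. Mir142 of the leukocyte list stood at 60.5 and 67.9 CPM. Mir143 passed as higher in replicate 2 with TMM (log2 ratio 0.054, exact binomial adjusted p = 6.9e-09) and as lower with total counts only (-0.25). The erythroid Mir144 had 9 and 65 reads against 180 and 117 for Mir451a. The part of these cell types in the Mir425 difference was not tested. Less RNA per cell cannot be told apart from fewer cells of a type in whole muscle.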

How the data were processed

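The authors deposited 1 file of whole-number read counts per microRNA gene for each of the 2 libraries, not normalized, with 3 count columns and no header: both strands, sense, and opposite strand. Per the deposited text descriptions, reads were placed on mm10 and genes taken from GENCODE M21. No source used here names the aligner or counter. The 4 lines of totals that name no gene held 81.1% and 82.0% of reads and stayed out of library sizes and tests. Column 3, the larger of the stranded columns in both files, gave the sense counts. All 2202 gene identifiers were found in GENCODE M21, and sequences came from RefSeq (GRCm38.p6).

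CPM used the sense totals. Library ratios used TMM effective sizes (edgeR 4.0.16, R 4.3.3) and a pseudocount of 1 CPM, with exact conditional binomial tests (scipy 1.17.1) over genes of 2 CPM or more in both libraries and Benjamini-Hochberg adjustment at 0.05. Such tests compare the libraries, not conditions. Ratios for neighbouring pairs had 0.5 reads added to each count. Alternatives were DESeq2 1.42.0 size factors, total counts, other filters, pseudocount, denominators and columns, and the edgeR exact test. On simulated data, the test recovered 69.3% of 192 genes changed 2-fold among 328 tested, and 100% of the 81 at 100 CPM or more, with 2 of 136 unchanged genes called. The simulation had counting error only.

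The members, the reference list, the markers and the tests were chosen with earlier results of these data known. Named genes were set by rule: the members, both lists, the 2 genes above and below each member in level, the 3 nearest in log2 ratio at 100 CPM or more, the nearest microRNA gene on each side, and the 3 pairs nearest in summed reads. Mir489, Gm24083, Mir378a, the Mir1a and Mir133a loci and the pair of Mir503 and Mir322 were named outside it, after their values were seen.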

Additional observations from a re-analysis of the deposited data

How the results depend on the processing

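Mir191 kept its negative log2 ratio, without passing, under DESeq2 size factors, both filters, the other pseudocount and the edgeR exact test; it passed with total counts only, at -0.35. Mir425 stayed lower under every alternative run and passed in all but the edgeR exact test (-0.58, adjusted p = 0.0606), with adjusted p from 3.51e-19 to 0.0606. Over all genes 120 passed, 60 each way, against 35 higher and 114 lower with total counts only and 53 in all with the edgeR exact test. The reference list's median turned to -0.02 with total counts only. The cause was not tested, except that total counts shift all genes and the edgeR test adds spread.

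Mean levels moved with the denominator. With reads of all kinds in the total, Mir191 stood at 1089 and Mir425 at 74.3, and without the most abundant gene in the total Mir191 stood at 7100. In the column of both strands Mir191 was 0, because reads under Gm24083 are dropped there, so that column gave no ratio of the pair, no test of that ratio and no log2 ratio of Mir191. Leaving out each replicate in turn gave 5169 to 6603 CPM for Mir191, 281 to 518 CPM for Mir425 and a ratio of 12.7 to 18.4. Subtracting opposite-strand reads changed nothing, since there were none. The medians over neighbouring pairs ran from 5.71-fold to 7.92-fold in level and 1.5-fold to 1.64-fold in shift over the 3 other pair definitions; the one without shared runs was chosen after seeing the data. Depth limits Mir425 more than Mir191.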

Other observations

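The loss of Mir191 in the column of both strands has parallels at other genes. Of the 321 detected microRNA genes, 21 had 0 reads in that column in both libraries, and all 21 overlap a microRNA gene that is read the other way. They held 20.0% of the sense reads in replicate 1 and 17.7% in replicate 2. By mean level Mir191 was the second of them, after Mir378a at 169582 ± 14393 CPM and before Mir486 at 4429 ± 1022 CPM (SD, n = 2). Levels of these genes can be read only from the sense column.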
